A study of Sus scrofa with 36 samples.

Results

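The enzymes described here belong to gene families that process foreign compounds, steroids, aldehydes and peroxides: cytochromes P450 (CYP), flavin monooxygenases (FMO), aldehyde dehydrogenases (ALDH), aldo-keto reductases (AKR), glutathione transferases (GST), sulfotransferases (SULT), UDP-glucuronosyltransferases (UGT), glutathione peroxidases (GPX) and peroxiredoxins (PRDX). Members were all genes of the array whose symbol starts with the name of such a family, with CYP2C33, GSTA1 and SULT1E1 left out, and a gene with several probe sets was read through the brightest one on average. The rule found 59 of the 6360 genes with a symbol: 21 CYP, 2 FMO, 11 ALDH, 5 AKR, 5 GST, 2 SULT, 1 UGT, 6 GPX and 6 PRDX genes.

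RNA was taken from the mammary gland of 36 female Yucatan miniature pigs aged 5 months, 4 in each of 9 groups, and each animal had 1 Affymetrix array. Pigs of the 8 treated groups lost their ovaries and were first given bromocriptine for 8 days; this drug stimulates dopamine receptors and so keeps prolactin low. Over the final 5 days HEP pigs received haloperidol, which blocks dopamine receptors and so lets prolactin rise, with estrogen and progesterone, HE pigs haloperidol with estrogen, HP pigs haloperidol with progesterone, and H pigs haloperidol alone. In the same days BEP pigs stayed on bromocriptine with estrogen and progesterone, BE pigs on bromocriptine with estrogen, BP pigs on bromocriptine with progesterone, and B pigs on bromocriptine alone. Sham pigs had an operation that spared the ovaries and received saline throughout. All pigs were injected with BrdU, a label of DNA synthesis, 24 hours before the end. Because bromocriptine was withdrawn where haloperidol was given, the effect of haloperidol is always that of the exchange of both drugs.

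P450s and flavin monooxygenases add oxygen to lipophilic substrates, among them steroids, sterols, vitamin D and drugs. Aldehyde dehydrogenases and aldo-keto reductases oxidise or reduce the aldehydes and ketones that arise, and transferases couple products to glutathione, sulfate or glucuronic acid. Glutathione peroxidases and peroxiredoxins reduce hydrogen peroxide and lipid peroxides with electrons from glutathione and thioredoxin. The liver is the main site of many of these enzymes, and fat, epithelium and blood vessels of the mammary gland hold their own sets.

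Values are the deposited RMA values, read as log2, and levels of different genes are not compared because each probe set has its own response. Differences are log2 differences ± SE from 1 limma fit of all 9 groups, and a gene is called at an adjusted p under 0.05 over all 20792 probe sets. The average effects of estrogen, haloperidol and progesterone each set 16 animals given the agent against 16 not given it. In whole tissue, fewer cells of a type and less RNA per cell cannot be told apart. Of the 59 genes, 18 had a mean below 5.90, the lowest lower quartile of any array, and are called dim: 12 CYP, 2 ALDH, 2 AKR genes, GPX5 and UGT2B31. Neither these values nor the labels hold a detection call, so no fold is given where a group lay under the lower quartile of its arrays. The within-group SD ran from 0.15 to 1.53 with a median of 0.42, against a median of 0.36 over all genes. The 9 groups held 6.94% to 78.9% of a gene's variance, with a median of 41.8% for the 59 enzymes and 38.9% for all genes.

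The array of BP animal A stands apart from its group. Its score on the first principal component was 70.0, against -65.3 to -48.3 for the other BP arrays, and its values for several enzymes lay with those of estrogen-treated animals: GPX7 was 10.01 there, against 8.11, 8.39 and 7.83 in the other BP animals. It was kept, and counts of called enzymes without it are given for the average effects, the interactions and BP against B. Of 13 luminal epithelial markers measured, 12 were above every array's lower quartile in all 36 arrays. Of 8 hepatocyte markers measured, 3 (APOA1, SERPINA1 and TF) were above it in all 36 arrays and 2 (ALB and FGB) below it in all 36.

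**Figure D1:**
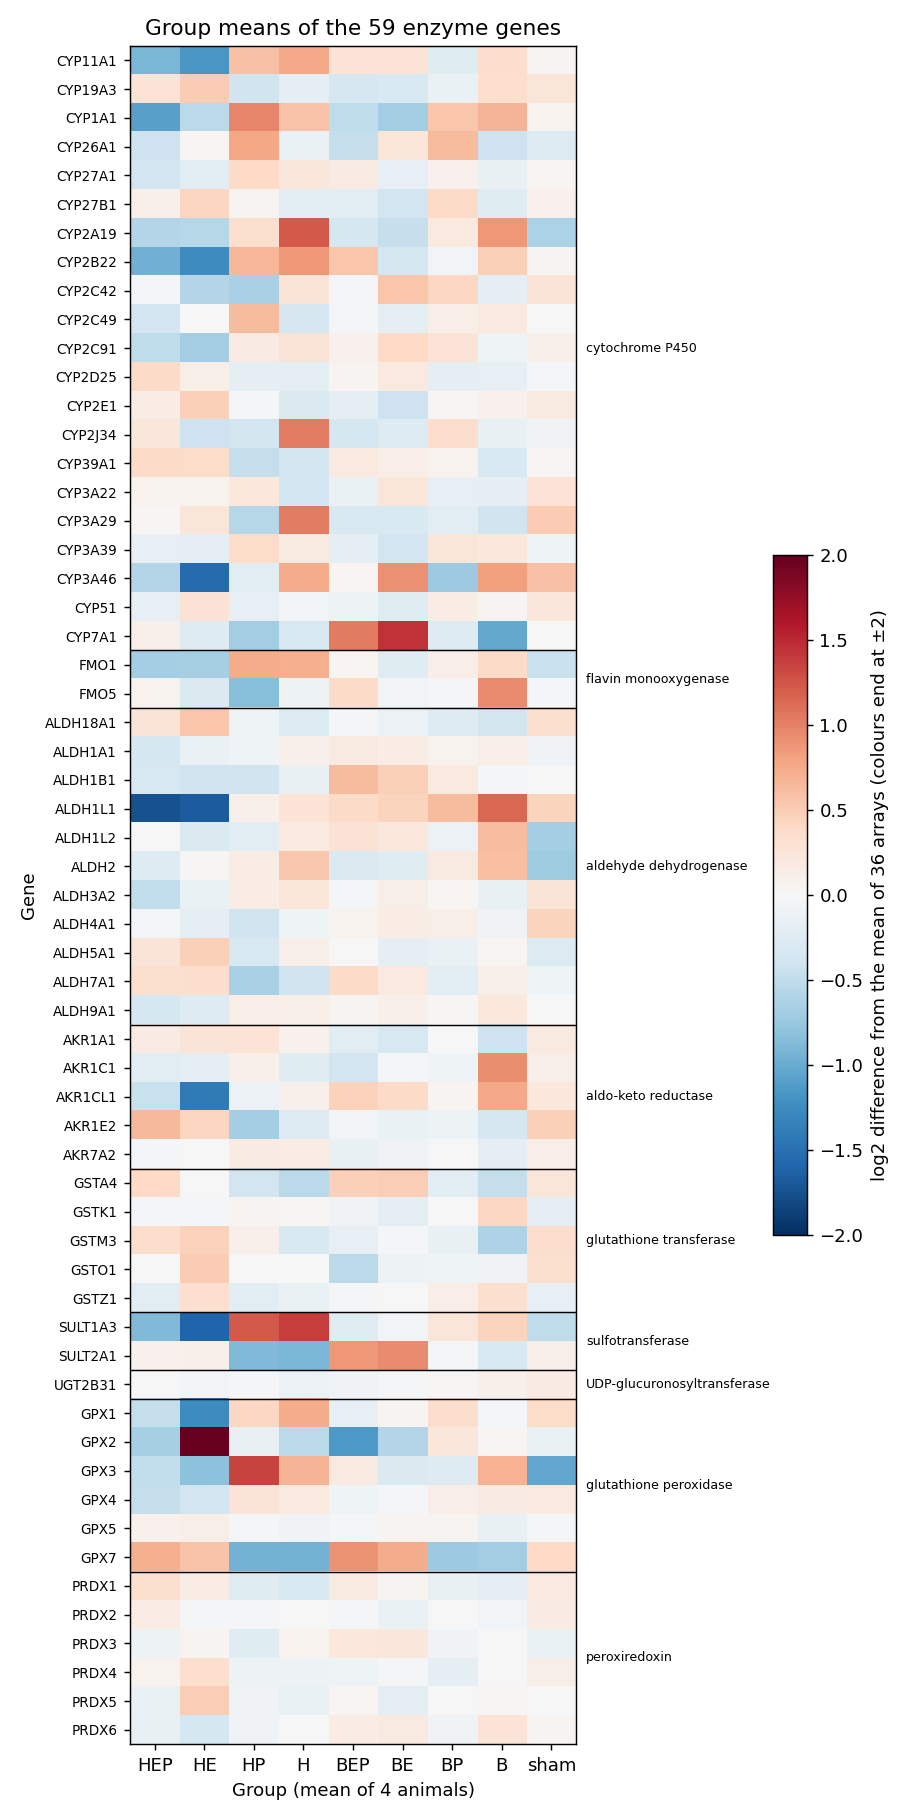
Group means (4 animals each) of the 59 enzyme genes as log2 differences from each gene's mean over the 36 arrays, by family. GPX2 stood out in HE (group mean 8.90), GPX7 was high in the 4 estrogen groups and sham, and ALDH1L1 was low in HEP and HE.

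With estrogen, 23 of the 59 enzymes changed: 10 rose and 13 fell. The largest rises were in GPX7 (2.94-fold), CYP7A1, SULT2A1 and GSTA4, and the largest falls in SULT1A3 (2.86-fold), CYP1A1, ALDH1L1, CYP2A19 and CYP2B22. The called share was 39.0% of the enzymes, against 35.1% of all probe sets, so the enzymes changed about as often as the rest of the array. Of all genes 20.1% were called higher and 18.6% lower, against 16.9% and 22.0% of the enzymes. The median effect was -0.03 for the enzymes and 0.03 for all genes. All 23 calls held when any 1 of 32 arrays was left out. Without BP animal A 30 enzymes were called, 11 higher and 19 lower, against 41.7% of all probe sets.

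Estrogen-treated glands also differed in their cell type markers. Of 13 adipocyte markers measured (of 16 listed, with PLIN1, PLIN4 and CIDEC not measured under their symbols), 8 fell and 0 rose, with a median of -1.10. The adipocyte score, the mean of these markers centred over the arrays, ran over -1.40 to -0.07 in HEP, -1.11 to -0.55 in HE, 0.27 to 0.84 in HP and 0.54 to 0.83 in H. It ran over -0.23 to 0.32 in BEP, -0.41 to 0.46 in BE, -0.79 to 0.82 in BP, -0.20 to 0.93 in B and -0.51 to 0.26 in sham. In addition 9 of 11 skeletal muscle markers and 6 of 9 endothelial markers fell with estrogen, and all 9 cell cycle genes measured rose. The muscle score, made in the same way, ran over -1.29 to -0.85 in HEP and -1.33 to -1.07 in HE. It ran over -1.45 to -0.91 in BEP and -1.42 to -0.99 in BE. Without estrogen it was uneven, at -1.15 to 3.22 in HP and 0.27 to 4.82 in H. In BP it ran over -0.93 to 3.47 and in B over -1.19 to 6.45. The luminal score ran over -1.43 to 0.60 in B. Of the other lists, 3 of 13 luminal, 2 of 5 myoepithelial and 1 of 3 keratinised skin markers rose, and 2 of 6 macrophage, 1 of 6 lymphocyte and 2 of 8 hepatocyte markers fell. Of all genes 20.1% were called higher and 18.6% lower. The shares of luminal markers higher (23.1%) and of lymphocyte (16.7%) and hepatocyte markers (25%) lower were near these rates. The shares lower were 61.5% for adipocyte, 81.8% for muscle and 66.7% for endothelial markers. With the adipocyte score as a covariate, an alternative added after seeing the data, 5 of the 23 estrogen calls remained: GPX7, GSTA4, SULT2A1, ALDH7A1 and AKR1E2, all higher. The score itself changed with the treatments, so adjusting for it can also remove an effect of treatment. A call lost in this fit therefore cannot tell what the change came from. The part of cell composition in each enzyme's change was not tested beyond these values.

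**Figure D2:**
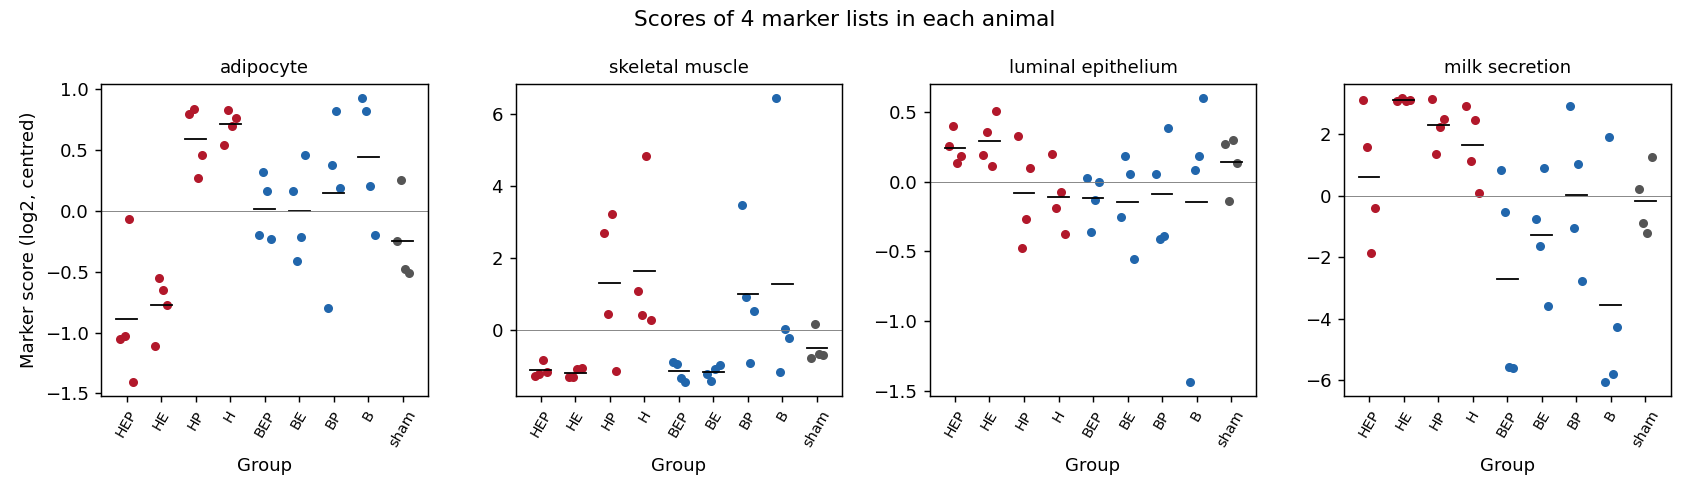
Scores of 4 marker lists (mean log2 value of the measured markers after centring each over 36 arrays) for each animal, with the group mean as a line; red groups received haloperidol, blue groups bromocriptine, and sham is grey. The adipocyte score of all 8 HEP and HE animals lay below that of all 8 HP and H animals, and milk scores were over 3 in all 4 HE animals.

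Glutathione peroxidases moved in opposite directions. GPX7, which lies in the endoplasmic reticulum and uses peroxide to help form disulfide bonds, was 10.01, 9.52, 10.66 and 9.91 in HEP animals A to D, 9.81, 10.13, 9.50 and 10.13 in HE, 10.22, 10.35, 10.25 and 10.06 in BEP and 10.25, 10.02, 10.04 and 9.91 in BE. It was 7.86, 8.54, 8.63 and 8.48 in HP, 8.46, 8.41, 8.83 and 7.80 in H, 10.01, 8.11, 8.39 and 7.83 in BP, 8.64, 9.09, 8.52 and 8.22 in B and 9.83, 9.55, 10.06 and 9.40 in sham. Every estrogen-treated animal lay above every other ovariectomized animal except BP animal A. The average effect of estrogen was 1.56 ± 0.16 (adjusted p = 9.39e-09), and the effect was 1.52 between HE and H and 1.44 between BE and B. All 3 GPX7 probe sets were called higher, at 1.56, 1.34 and 0.94. Ovariectomy with bromocriptine went the other way: GPX7 was lower in B than in sham, with a difference of -1.09 ± 0.31 (adjusted p = 0.0403) with no overlap of the 4 and 4 animals, a call that was lost without any 1 of 7 of the 8 arrays (adjusted p = 0.0585 to 0.0985).

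GPX1, the cytosolic glutathione peroxidase, GPX3, the form secreted to plasma, and GPX4, which reduces peroxides within membranes, fell with estrogen. For GPX1 the lowest, median and highest values were 10.11, 11.17 and 12.27 in the 16 estrogen-treated animals, against 10.51, 12.22 and 12.54 in the 16 others. The difference was -0.83 ± 0.17 (adjusted p = 0.000437), and 4 estrogen-treated animals lay below all others, while the ranges overlapped. GPX3 had 6.63, 8.19 and 9.57 with estrogen, against 6.41, 9.00 and 10.93 without, a difference of -0.97 ± 0.27 (adjusted p = 0.00548). The GPX3 difference was -1.51 between HE and H, -1.84 between HEP and HP and -0.98 between BE and B. Between BEP and BP it was 0.44, and the lowest value (6.41) was that of a BP animal. GPX4 had 11.62, 11.92 and 12.59 with estrogen, against 11.65, 12.42 and 12.67 without, a difference of -0.43 ± 0.09 (adjusted p = 0.000452). The second GPX4 probe set did not follow it (0.18, adjusted p = 0.323), and with the mean of both the GPX4 call was lost (adjusted p = 0.297). With the adipocyte score as a covariate the effect was -0.33 for GPX1 (adjusted p = 0.464), -0.18 for GPX4 (adjusted p = 0.445) and 0.25 for GPX3 (adjusted p = 0.674). GPX3 was 9.02, 9.62, 9.61 and 8.35 in B, against 7.18, 8.14, 7.46 and 6.87 in sham, with no overlap, a difference of 1.74 ± 0.53 that was not called (adjusted p = 0.0578).

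GPX2, known as the epithelial glutathione peroxidase of the gut, was high in 1 treatment group. It was 7.66, 9.25, 9.19 and 9.51 in HE animals A to D, against 4.95, 5.03, 5.91 and 5.09 in HEP, 4.62, 5.55, 5.65 and 5.46 in BE and 5.21, 6.02, 5.60 and 4.64 in H. In the other groups it was 4.87, 6.05, 6.48 and 5.63 in HP, 5.40, 5.07, 4.08 and 4.48 in BEP, 7.98, 6.17, 5.63 and 4.78 in BP, 7.61, 5.32, 5.48 and 5.31 in B and 6.51, 5.37, 5.40 and 5.81 in sham. Of the other 32 animals, BP animal A (7.98) lay above the lowest HE animal, B animal A (7.61) just below it, and every other animal at or below 6.51. GPX2 was below the lower quartile of the array in 0 of the 4 HE animals, against 25 of the 32 others, among them all 4 HEP and all 4 BE animals, and its mean over the 36 arrays (5.91) was just above the limit for dim genes. HE exceeded BE by 3.58 ± 0.53 (adjusted p = 6.55e-05), and HEP was below HE, with a difference of -3.66 ± 0.53 (adjusted p = 0.000186). Both calls held without any 1 of the 8 arrays concerned and with the adipocyte score as a covariate. GPX2 was also the only enzyme called in HEP against HE (1 of 59, against 0.476% of all probe sets) and in the interaction of estrogen with progesterone (1 of 59, against 0.25%). That interaction was -2.41 ± 0.53 (adjusted p = 0.0381), and its call was lost without any 1 of 20 of the 32 arrays (adjusted p = 0.0504 to 0.0837). Without BP animal A 2 enzymes were called in that interaction, 1 higher and 1 lower, against 0.317% of all probe sets. GPX5, the epididymal form, was dim in all groups, with group means of 2.48 to 2.74.

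**Figure D3:**
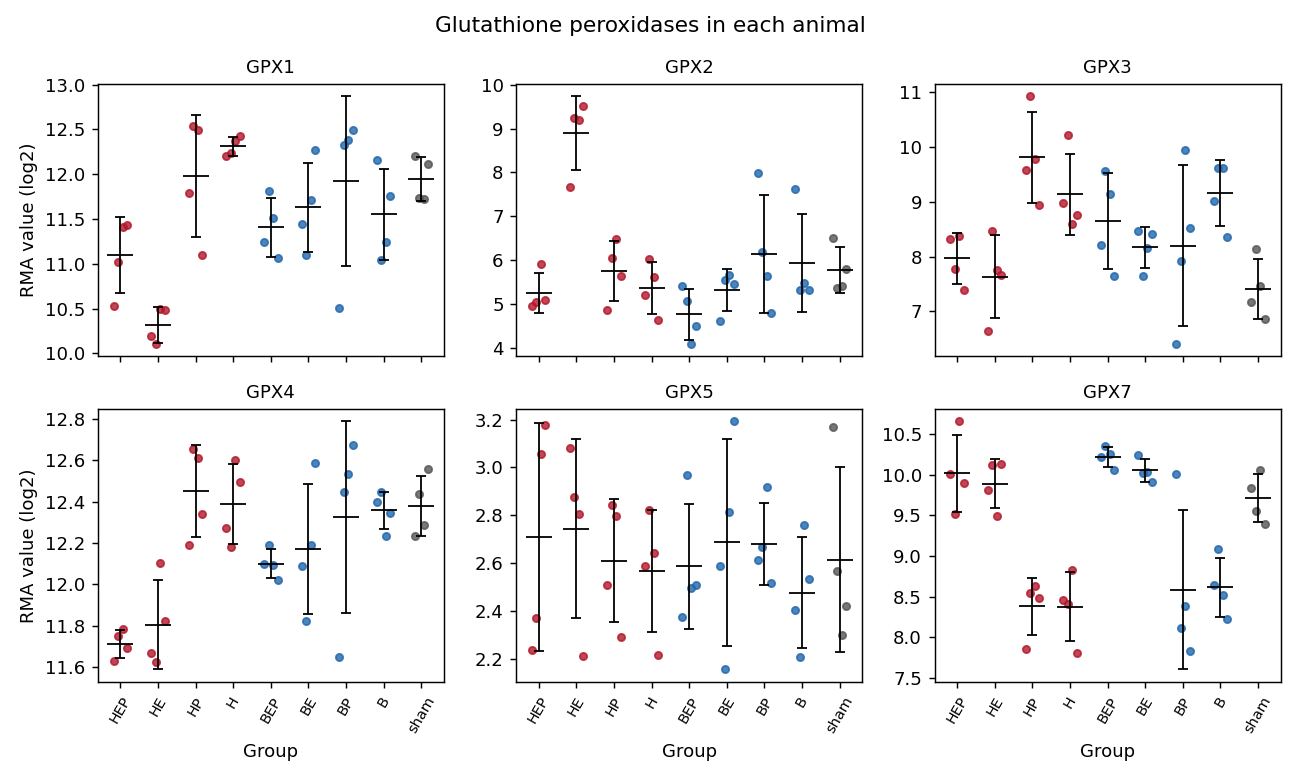
RMA values (log2) of the 6 glutathione peroxidases in each animal (points), with group mean and SD; red groups received haloperidol, blue groups bromocriptine, and sham is grey. GPX2 was at 7.66 to 9.51 in HE, and GPX7 split the ovariectomized animals by estrogen except for BP animal A at 10.01.

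Peroxiredoxins varied less. PRDX1, a cytosolic peroxiredoxin, rose with estrogen by 0.40 ± 0.07 (adjusted p = 8.48e-05): its lowest, median and highest values were 11.57, 11.91 and 12.08 with estrogen, against 11.18, 11.49 and 11.77 without, and 10 of the 16 estrogen-treated animals lay above all others. The mitochondrial PRDX3, at 0.15 for estrogen, PRDX2, at 0.02, PRDX5, at 0.09, PRDX6, at -0.08, and PRDX4 of the endoplasmic reticulum, at 0.17 (adjusted p = 0.0679), were not called. The second PRDX4 probe set was called in the other direction (-0.38, adjusted p = 0.0425), so the gene has no settled direction.

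Among the P450s, 3 rose and 4 fell with estrogen and 14 were not called, so 33.3% were called, against 38.7% of all genes. CYP7A1, the rate-limiting enzyme of bile acid synthesis from cholesterol in liver, rose by 1.16 ± 0.23 (adjusted p = 0.000224), but its probe set was dim and below the lower quartile of the array in 12 of the 16 estrogen-treated and all 16 other ovariectomized animals, among them 1 of 4 in BE and 4 of 4 in B. It was 6.21, 6.16, 5.74 and 5.94 in BE, against 2.88, 4.25, 3.74 and 3.36 in B, with no overlap and a difference of 2.46 ± 0.45 (adjusted p = 0.00108). In BEP it was 5.18, 5.54, 5.67 and 6.08, against 5.24, 4.03, 4.84 and 3.13 in BP, and BP animal A was the only BP animal within the BEP range. In HE it was 5.59, 4.26, 3.13 and 4.30, against 4.89, 4.21, 3.42 and 4.51 in H, and these groups overlapped. CYP39A1, which hydroxylates oxysterols, rose by 0.55 ± 0.12 (adjusted p = 0.000772), and CYP2D25, known in pig as a vitamin D 25-hydroxylase, by 0.36 ± 0.10 (adjusted p = 0.00571).

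CYP1A1, the aryl hydrocarbon receptor target that oxidises aromatic hydrocarbons, fell by 1.41 ± 0.25 (adjusted p = 7.16e-05) with estrogen. Its lowest, median and highest values were 3.25, 4.66 and 5.40 in the 16 estrogen-treated animals, against 4.41, 6.04 and 7.67 in the 16 others, and it was dim, below the lower quartile of the array in all 16 estrogen-treated animals and in 8 of the 16 others. CYP2A19, a pig member of the CYP2A family of drug and coumarin oxidases and also dim, fell by 1.15 ± 0.28 (adjusted p = 0.00188), and CYP3A39, of the drug-oxidising CYP3A family, fell by 0.48 ± 0.13 (adjusted p = 0.00412) at a level of 2.67 in HE and 3.03 in H, near the bottom of the scale. CYP2B22, of the barbiturate-inducible CYP2B family, was bright and fell by 0.998 ± 0.25 (adjusted p = 0.00243). It was 9.20, 9.87, 10.43 and 10.80 in HE, against 12.44, 12.45, 12.15 and 11.80 in H, with every HE animal below every H animal. In BE it was 9.57, 11.57, 10.97 and 11.79, against 12.21, 11.78, 11.50 and 11.79 in B, and these overlapped. With progesterone the CYP2B22 difference was -1.63 between HEP and HP but 0.61 between BEP and BP. The BP mean includes BP animal A, and no value without it is given here. The 0.61 therefore cannot tell whether the fall was absent on that background. Closely related P450s, AKR1C genes and UGT2B genes can cross-hybridise, so a value of CYP2A19, CYP2B22, a CYP2C, a CYP3A or an AKR1C gene may include a relative.

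Of the P450s not called with estrogen, CYP11A1, which starts steroid synthesis by cutting the cholesterol side chain, had the largest value (-0.75 ± 0.38, adjusted p = 0.13). CYP19A3, one of the pig aromatase genes that make estrogens from androgens, was at 0.13, CYP27A1, the sterol 27-hydroxylase, at -0.29, CYP2E1, the ethanol-inducible P450, at 0.06 and CYP3A29 at -0.05. For CYP27A1 the 2 other probe sets had the opposite sign (0.68 and 0.32), and 0.68 was called (adjusted p = 0.0172).

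FMO1, a drug-oxidising flavin monooxygenase, fell by 0.88 ± 0.15 (adjusted p = 4.87e-05) with estrogen. It was 9.60, 10.24, 10.26 and 10.12 in HE and 9.93, 10.24, 10.54 and 9.46 in HEP, against 11.71, 11.60, 11.40 and 11.10 in H and 11.05, 11.78, 11.58 and 11.44 in HP. In the bromocriptine groups it was 10.49, 10.70, 10.52 and 10.22 in BE and 10.56, 10.79, 11.00 and 10.70 in BEP, against 10.94, 11.58, 11.10 and 10.81 in B and 9.38, 11.42, 11.61 and 11.01 in BP. Under haloperidol every estrogen-treated animal was below every other, and under bromocriptine the groups overlapped, with BP animal A at the bottom. FMO5, which oxidises ketones, was at 0.04 for estrogen and was not called.

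Of the 11 aldehyde dehydrogenases, 2 rose and 2 fell with estrogen (36.4%, against 38.7% of all genes). ALDH7A1, of lysine breakdown, rose by 0.60 ± 0.13 (adjusted p = 0.000799) and ALDH18A1, the first enzyme of proline synthesis from glutamate, by 0.42 ± 0.08 (adjusted p = 0.000158). ALDH1L1, the cytosolic dehydrogenase of formyl folate, fell by 1.18 ± 0.31 (2.27-fold, adjusted p = 0.00355), and ALDH2, which clears acetaldehyde in mitochondria, fell by 0.56 ± 0.18 (adjusted p = 0.0161). With the adipocyte score as a covariate ALDH1L1 was at 0.29 (adjusted p = 0.649) and ALDH2 at -0.14 (adjusted p = 0.811). The retinaldehyde dehydrogenase ALDH1A1 was at -0.10 and the fatty aldehyde dehydrogenase ALDH3A2 at -0.20, both not called.

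The sulfotransferases moved apart. SULT1A3, which in humans sulfates dopamine and other catecholamines, was 8.42, 9.53, 9.01 and 8.67 in HE and 9.31, 9.43, 10.99 and 8.83 in HEP, against 10.91, 12.12, 12.20 and 12.35 in H and 11.22, 12.25, 12.58 and 10.94 in HP. It was 10.40, 9.42, 10.78 and 11.22 in BE and 10.53, 10.49, 10.75 and 9.33 in BEP, against 9.88, 11.19, 11.03 and 11.71 in B and 7.94, 11.20, 12.09 and 11.79 in BP, and the lowest of the 36 values was that of BP animal A. The average effect of estrogen was -1.52 ± 0.31 (adjusted p = 0.000328). With the adipocyte score as a covariate it was -0.45 (adjusted p = 0.56). SULT2A1, which sulfates dehydroepiandrosterone and bile acids, rose by 1.04 ± 0.25 (adjusted p = 0.0019), with values of 6.54, 7.80 and 9.12 (lowest, median and highest) in estrogen-treated animals, against 5.25, 6.73 and 7.89 in the others.

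GSTA4, which couples glutathione to the lipid peroxidation product hydroxynonenal, was the only 1 of 5 glutathione transferases called with estrogen (20%, against 38.7% of all genes). It was 9.94, 9.95, 10.06 and 9.70 in BE, against 8.30, 9.15, 9.26 and 9.09 in B, with no overlap and a difference of 0.96 ± 0.22 (adjusted p = 0.00799; 0.0507 without B animal A). The average effect was 0.74 ± 0.11 (adjusted p = 6.58e-06), and 11 of the 16 estrogen-treated animals lay above all 16 others. GSTM3 was at 0.40 (adjusted p = 0.0505), GSTK1 at -0.22, GSTO1 at 0.01 and GSTZ1, of tyrosine breakdown, at -0.01. The second GSTZ1 probe set was called lower (-0.35, adjusted p = 0.0387). Of the aldo-keto reductases AKR1E2, which reduces anhydrofructose and was dim, rose by 0.56 ± 0.12 (adjusted p = 0.00085). AKR1CL1, a relative of the AKR1C steroid reductases, fell by 0.45 ± 0.15 (adjusted p = 0.0175), and its 2 other probe sets were called lower too, at -0.96 and -1.50. AKR1C1, known in humans as a progesterone-inactivating reductase and dim here, fell by 0.38 ± 0.13 (adjusted p = 0.0181). The only UGT, UGT2B31, which glucuronidates steroids and drugs, was dim and at -0.03.

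**Figure D4:**
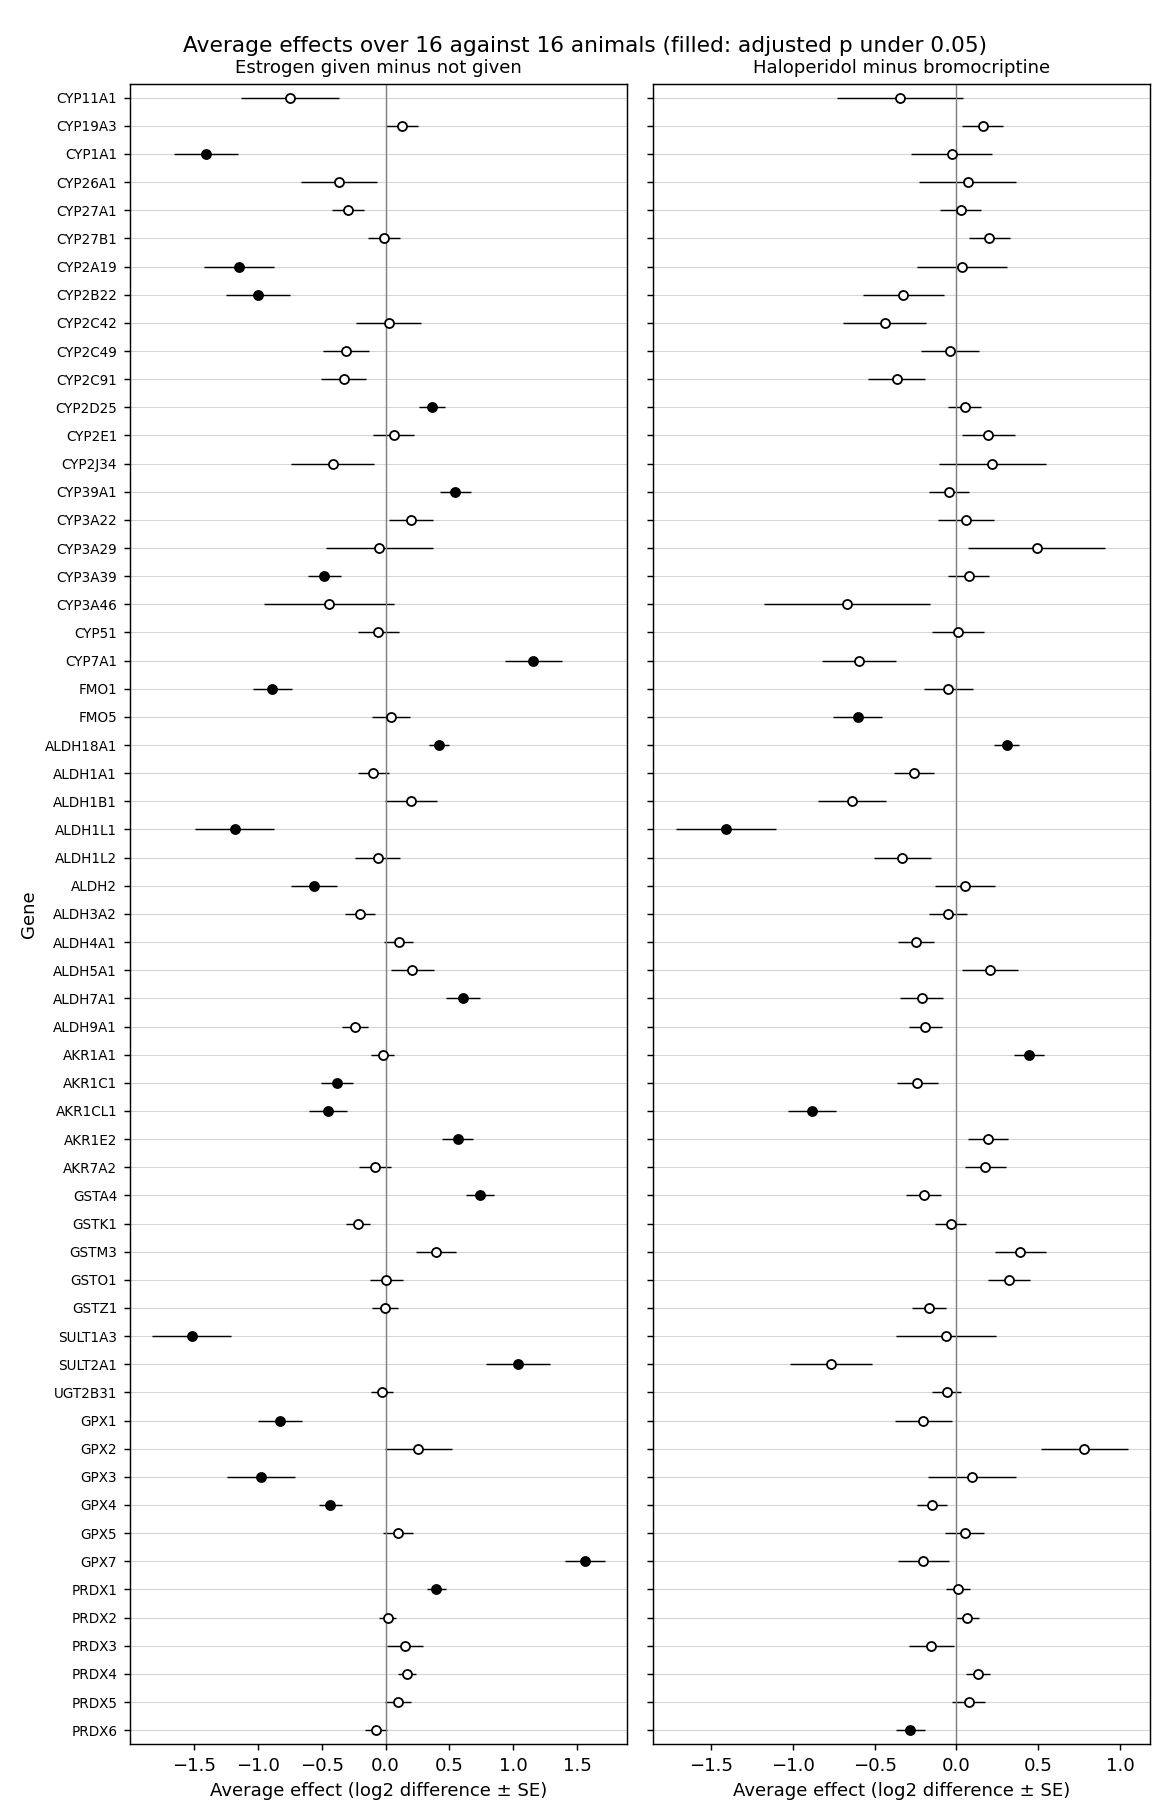
Average effects of estrogen (left) and haloperidol (right) on the 59 enzymes as log2 differences ± SE over 16 against 16 animals, by family; filled points have an adjusted p under 0.05. Estrogen effects ran from -1.52 (SULT1A3) to 1.56 (GPX7), and haloperidol effects from -1.41 (ALDH1L1) to 0.78 (GPX2, not called).

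With haloperidol in place of bromocriptine, 6 of the 59 enzymes changed: AKR1A1 and ALDH18A1 rose, and ALDH1L1, AKR1CL1, FMO5 and PRDX6 fell. These were 10.2% of the enzymes, against 6.98% of all probe sets. Of all genes 5.86% were called higher and 2.36% lower, against 3.39% and 6.78% of the enzymes. Without BP animal A 11 enzymes were called, 3 higher and 8 lower, against 11.7% of all probe sets. All 6 milk genes measured rose with haloperidol, 1 of 13 adipocyte markers fell and 2 of 4 red cell markers fell. In addition 3 of 8 hepatocyte markers (HP, AHSG and TTR) and 2 of 9 cell cycle genes rose, and of 13 luminal markers 2 rose and 1 fell.

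ALDH1L1 was 6.56, 6.65, 9.35 and 7.31 in HEP and 7.44, 6.43, 8.01 and 8.25 in HE, against 9.40, 9.42, 9.98 and 9.53 in BEP and 9.90, 8.47, 9.57 and 10.66 in BE. It was 8.99, 9.49, 9.25 and 9.47 in HP and 8.65, 9.33, 9.91 and 10.05 in H, against 7.25, 10.06, 11.04 and 10.97 in BP and 10.85, 10.76, 10.34 and 9.43 in B. All HEP and HE animals lay below all BEP animals, and BP animal A (7.25) lay with HEP and HE. The average effect of haloperidol was -1.41 ± 0.31 (2.65-fold, adjusted p = 0.0043), and the interaction of estrogen with haloperidol was -1.42 and not called (adjusted p = 0.145). The second, dimmer ALDH1L1 probe set was not called for haloperidol (-0.43, adjusted p = 0.075) or estrogen (-0.28, adjusted p = 0.141).

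AKR1CL1 fell by 0.88 ± 0.15 (adjusted p = 0.000283), and its 2 other probe sets were called lower, at -0.47 and -1.15. It was 10.11, 10.18, 9.56 and 9.76 in HE, against 11.64, 11.46, 11.85 and 11.83 in BE, with every HE animal below every BE animal. FMO5 fell by 0.60 ± 0.15 (adjusted p = 0.0119). Its mean of 5.95 was just above the limit for dim genes, and 21 of 36 arrays had it below their lower quartile. These were 4 of 4 arrays in HE, 4 of 4 in HP, 3 of 4 in H and 2 of 4 in HEP. In the bromocriptine groups they were 3 of 4 in BE, 2 of 4 in BP, 1 of 4 in BEP and 0 of 4 in B. PRDX6, which reduces phospholipid peroxides, fell by 0.28 ± 0.09 (adjusted p = 0.0482), a call lost without any 1 of 25 of the 32 arrays (adjusted p = 0.0514 to 0.0878). AKR1A1, the general aldehyde reductase, rose by 0.44 ± 0.09 (adjusted p = 0.003), with a lowest, median and highest value of 11.86, 12.02 and 12.46 under haloperidol, against 11.05, 11.60 and 12.33 under bromocriptine. ALDH18A1 rose by 0.31 ± 0.08 (adjusted p = 0.0159). With the adipocyte score as a covariate the calls of ALDH18A1 (adjusted p = 0.0531) and PRDX6 (adjusted p = 0.14) were lost and the other 4 remained. Of the enzymes not called, GPX2 was at 0.78 ± 0.27 (adjusted p = 0.0688) and SULT2A1 at -0.77 ± 0.25 (adjusted p = 0.0578). The second CYP2D25 probe set was called higher (1.23, adjusted p = 8.67e-06) while the brighter one was not (0.05, adjusted p = 0.824).

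The effect of estrogen differed between haloperidol and bromocriptine for 9 of the 59 enzymes (15.3%, against 7.48% of all probe sets), with a more positive effect under haloperidol in 3 and a more negative one in 6. Among all genes 5.3% were called in the positive and 3.52% in the negative direction, against 5.08% and 10.2% of the enzymes. The 3 were GPX2 (2.51 ± 0.53, adjusted p = 0.00679), CYP19A3 (1.10 ± 0.25, adjusted p = 0.0103) and AKR1E2 (0.90 ± 0.25, adjusted p = 0.0269). The second CYP19A3 probe set, with a mean of only 3.08, was at 0.08 and not called (adjusted p = 0.854). CYP19A3 was 8.96, 9.26, 9.11 and 9.11 in HE, against 8.14, 8.37, 8.74 and 8.42 in H, with no overlap, and 8.18, 7.72, 8.68 and 8.58 in BE, against 9.54, 8.75, 8.65 and 8.79 in B, where 1 of the 4 BE animals lay above the lowest B animal. AKR1E2 was higher in HE than in H by 0.69 and in BE than in B by 0.19. With progesterone the gap was wider, at 1.33 between HEP and HP and 0.04 between BEP and BP. AKR1E2 lay below the lower quartile of the array in 27 of the 36 arrays. These 3 calls held without any 1 of 32 arrays.

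The 6 with a more negative effect under haloperidol were SULT1A3 (-2.06 ± 0.61, adjusted p = 0.0371), CYP2B22 (-1.76 ± 0.50, adjusted p = 0.0291), CYP7A1 (-1.45 ± 0.45, adjusted p = 0.0461), GPX1 (-1.22 ± 0.34, adjusted p = 0.0297), FMO1 (-1.05 ± 0.30, adjusted p = 0.033) and AKR1CL1 (-0.93 ± 0.29, adjusted p = 0.0479). Another AKR1CL1 probe set was called too (-1.76, adjusted p = 0.0255), and the dimmest was not (-0.57, adjusted p = 0.222). GPX1 was 10.19, 10.11, 10.49 and 10.48 in HE, against 12.21, 12.23, 12.37 and 12.43 in H, with no overlap, and 11.44, 11.09, 11.72 and 12.27 in BE, against 12.16, 11.04, 11.24 and 11.76 in B, where the ranges overlapped. SULT1A3 was lower in HE than in H, with a log2 difference of -2.98, and the difference of BE from B was -0.50. CYP7A1 had the other pattern, with 0.07 in HE against H and 2.46 in BE against B. The calls were lost without any 1 of 13 of the 32 arrays for SULT1A3, 2 for CYP2B22 (HP animal B and BE animal D), 22 for CYP7A1, 5 for GPX1 (HEP animal A, BEP animal B, HP animals B and C and BE animal D), 5 for FMO1 (HP animals B and C, BE animal B, BEP animal C and HEP animal D) and 23 for AKR1CL1 (highest adjusted p = 0.0867). Without HP animal B 3 enzymes were called, without BP animal B 13 and without BP animal A 8, against 4.95% of all probe sets. Of the cell type markers, 6 of 13 for adipocytes (median -1.46), 3 of 6 for macrophages, 2 of 9 for endothelium and 1 of 8 for hepatocytes were called in the negative direction, and 4 of 9 cell cycle genes and 1 of 13 luminal markers in the positive one. Of the 9 enzyme calls 0 remained with the adipocyte score as a covariate (adjusted p = 0.053 for CYP19A3 and 0.119 for GPX2). Of the 13 markers in that score 6 were themselves called in this interaction, so the fit cannot separate the parts.

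**Figure D5:**
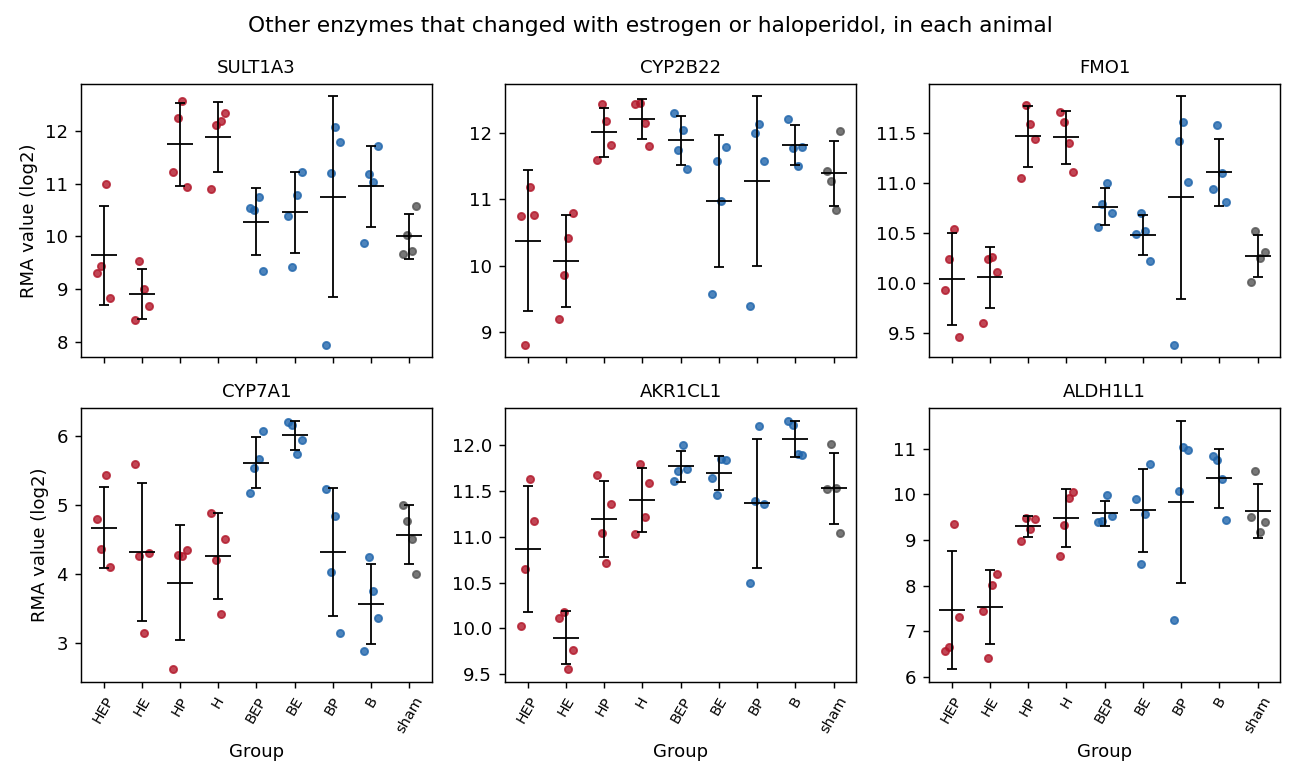
RMA values (log2) of 6 enzymes in each animal (points), with group mean and SD; red groups received haloperidol, blue groups bromocriptine, and sham is grey. SULT1A3, CYP2B22 and FMO1 were lowest in HE and HEP among the group means, CYP7A1 was highest in BE and BEP, and BP animal A lay apart from its group in 5 of the 6 panels.

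In HE against BE, which uses animals of the comparisons above, 12 enzymes were called, 6 higher and 6 lower (20.3%, against 10.5% of all probe sets). Of all genes 7.78% were called higher and 4.12% lower, against 10.2% and 10.2% of the enzymes. Besides GPX2, the higher ones were CYP19A3 (0.82 ± 0.25, adjusted p = 0.0316), CYP27B1, which makes the active form of vitamin D and was dim (0.81 ± 0.25, adjusted p = 0.0362), PRDX5, a peroxiredoxin of mitochondria and peroxisomes (0.69 ± 0.20, adjusted p = 0.0249), ALDH18A1 (0.67 ± 0.16, adjusted p = 0.00593) and AKR1A1 (0.58 ± 0.18, adjusted p = 0.0398). PRDX5 was 12.29, 12.47, 12.20 and 12.33 in HE, against 11.66, 11.77, 11.42 and 11.67 in BE, and ALDH18A1 was 11.63, 11.59, 11.63 and 11.52 in HE, against 10.72, 11.09, 11.07 and 10.78 in BE. Neither pair of groups overlapped.

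The lower ones were ALDH1L1 (-2.12 ± 0.61, adjusted p = 0.0234), AKR1CL1 (-1.79 ± 0.29, adjusted p = 0.000204), CYP7A1 (-1.69 ± 0.45, adjusted p = 0.0142), GPX1 (-1.31 ± 0.34, adjusted p = 0.0129), CYP2C91, of the CYP2C drug oxidases (-1.09 ± 0.35, adjusted p = 0.0411), and PRDX6 (-0.55 ± 0.18, adjusted p = 0.0433). The calls of GPX2, AKR1CL1 and ALDH18A1 held without any 1 of the 8 arrays, and the other 9 were lost without at least 1: CYP7A1 without HE animal C (adjusted p = 0.0809), GPX1 without BE animal D (0.0631), ALDH1L1 without BE animal A, HE animal B or BE animal D (0.0608 to 0.0991), and the remaining 6 without any 1 of 5 or 6 arrays (0.0504 to 0.189). Without BE animal A 5 enzymes were called. Of the 13 adipocyte markers 3 were lower in HE, while 3 of 6 milk genes and 2 of 9 cell cycle genes were higher. In addition 1 of 9 endothelial and 1 of 4 red cell markers were lower, 1 of 8 hepatocyte markers was higher, and of 13 luminal markers 2 were higher and 1 lower. Of the 12 calls 4 remained with the adipocyte score as a covariate: GPX2, AKR1CL1, CYP7A1 and CYP19A3.

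Estrogen alone, in BE against B, called 4 enzymes (6.78%, against 3.78% of all probe sets): CYP7A1, GPX7 (1.44 ± 0.31, adjusted p = 0.00521) and GSTA4 were higher, and AKR1C1 lower (-0.97 ± 0.25, adjusted p = 0.0215). The AKR1C1 probe set was below the lower quartile of its array in all 36 arrays, and that call was lost without BE animal A, B or D or B animal D (adjusted p = 0.0714 to 0.114). In the same comparison 8 of 9 cell cycle genes and 2 of 5 myoepithelial markers were higher. All 4 calls remained with the adipocyte score as a covariate.

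Ovariectomy with bromocriptine, in B against sham, called 4 enzymes (6.78%, against 4.18% of all probe sets). In the same comparison all 9 cell cycle genes (median -2.57), 3 of 5 myoepithelial markers and 1 of 6 milk genes were lower, and 0 of 13 adipocyte markers were called (median 0.74). The part of these cells in the enzymes' differences was not tested. ALDH2 was 11.59, 10.56, 10.53 and 10.72 in B, against 8.74, 9.98, 10.05 and 9.34 in sham, with no overlap and a difference of 1.32 ± 0.36 (adjusted p = 0.0315). ALDH1L2, the mitochondrial counterpart of ALDH1L1 and dim, was 6.23, 6.26, 5.79 and 5.01 in B, against 4.43, 4.42, 5.40 and 3.83 in sham, and 3 of the 4 B animals lay above all sham animals (1.30 ± 0.35, adjusted p = 0.0267). ALDH18A1 was 10.57, 10.78, 10.36 and 10.94 in B, against 11.32, 11.25, 11.45 and 11.37 in sham, with no overlap (-0.69 ± 0.16, adjusted p = 0.00962), and GPX7 was the other lower gene. ALDH18A1 was lost without B animal C (adjusted p = 0.0551), ALDH2 without sham animal A or D or B animal A (0.0981 to 0.137) and ALDH1L2 without any 1 of 6 of the 8 arrays (0.0592 to 0.135). In the fit of B and sham alone, and with the adipocyte score as a covariate, 0 of the 4 were called. Without sham animal A 1 enzyme was called, and without B animal D 8.

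Progesterone was followed by 0 called enzymes on average (3 at an unadjusted p under 0.05; limma called 0.0914% of all probe sets), and so was BP against B (7 unadjusted; 0.024%). H against B called 0 enzymes (7 unadjusted; 0.0337%), and the interaction of progesterone with haloperidol 0 (3 unadjusted; 0% of all probe sets). Without BP animal A progesterone called 0 enzymes (0.149% of all probe sets) and BP against B 0 (0.0914%). The interaction of progesterone with haloperidol then also called 0 (0%). With array weights H against B called 2 enzymes and with 1 probe set per gene 1, while progesterone, BP against B and the interaction stayed at 0 in every alternative run. The largest average effects of progesterone were -0.90 ± 0.27 for GPX2 (adjusted p = 0.415) among the glutathione peroxidases and -0.62 for CYP3A46 (adjusted p = 1) among the P450s.

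In all, 32 of the 59 enzymes were called in at least 1 of the 12 comparisons (54.2%, against 48.4% of all genes and 44.7% of all probe sets) and 27 in none. Of the 27, 10 were dim: CYP11A1, CYP26A1, which breaks down retinoic acid, CYP2C42, CYP2C49, CYP2E1, CYP2J34, CYP3A22, ALDH5A1, GPX5 and UGT2B31. The other 17 were CYP27A1, CYP3A29, CYP3A46, CYP51 of cholesterol synthesis, ALDH1A1, ALDH1B1, ALDH3A2, ALDH4A1 of proline breakdown, ALDH9A1, AKR7A2, GSTK1, GSTM3, GSTO1, GSTZ1, PRDX2, PRDX3 and PRDX4.

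The partners of these enzymes were taken from 3 further gene lists. Of 37 measured genes (46 listed) of glutathione and thioredoxin metabolism and of the NRF2 response to oxidants, 6 rose and 4 fell with estrogen (16.2% and 10.8%, against 20.1% and 18.6% of all genes). GGT1, which cleaves glutathione at the outer cell surface, rose by 1.38 ± 0.18 (adjusted p = 1.23e-06), the haem oxygenase HMOX1 by 0.50 ± 0.19 (adjusted p = 0.0368) and the glutathione synthetase GSS by 0.40 ± 0.11 (adjusted p = 0.0049), with SELENOW, TXNRD1 and TXN the other risers. ME1, which makes NADPH for fat synthesis, was at -0.69 ± 0.24 (adjusted p = 0.0218) and the mitochondrial superoxide dismutase SOD2 at -0.50 ± 0.09 (adjusted p = 0.00012), and MGST3 and TALDO1 fell too. With haloperidol 3 fell and 0 rose (8.11% and 0%, against 2.36% and 5.86% of all genes). ME1 was at -1.65 ± 0.24 (adjusted p = 3.35e-05), with TKT and MGST3 the others. The list medians were -0.04 for estrogen and -0.01 for haloperidol.

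Of 20 measured genes (43 listed) of other drug and aldehyde metabolism, 1 rose and 10 fell with estrogen (5% and 50%, against 20.1% and 18.6% of all genes), with a median of -0.29. The monoamine oxidases went apart, with MAOB at 0.97 ± 0.17 (adjusted p = 4.61e-05) and MAOA at -0.66 ± 0.14 (adjusted p = 0.000386). PON3, a lactonase, was at -0.95 ± 0.33 (adjusted p = 0.0248), PPARA, a fatty acid receptor that was dim, at -0.81 ± 0.20 (adjusted p = 0.0019) and the carboxylesterase CES1 at -0.78 ± 0.21 (adjusted p = 0.00555). With haloperidol the transporter ABCG2, which moves compounds into milk, rose by 0.59 ± 0.12 (adjusted p = 0.00245), and CES1 and the epoxide hydrolase EPHX1 fell. These were 5% higher and 10% lower, against 5.86% and 2.36% of all genes. Of 21 measured genes (35 listed) of steroid and retinoid handling, 2 rose with estrogen (CRABP2, a retinoic acid carrier, at 0.82 ± 0.15, and RARB) and 3 fell (RBP4, the retinol carrier, at -1.31 ± 0.28, HSD17B1, which activates estrone, at -1.14 ± 0.19, and HSD17B8), so 23.8% were called, against 38.7% of all genes. RARB was below the lower quartile of the array in all 36 arrays. With haloperidol HSD17B7 rose by 0.79 ± 0.11 (adjusted p = 4.61e-05) and STAR, which delivers cholesterol for steroid synthesis, was at -1.15 ± 0.28 (adjusted p = 0.00926). In this list 4.76% were called higher and 4.76% lower, against 5.86% and 2.36% of all genes.

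For the 4 enzymes with the largest average effects, the genes with the most similar group means were looked up as a description over 9 group means, with no test. GPX7 was most like VCAN (Pearson r = 0.989), OXTR (0.984) and TMX1 (0.983), and SULT1A3 most like ACAA1 (0.982), S1PR1 (0.980) and PLTP (0.978). ALDH1L1 was most like SMIM4 (0.996), PNPLA3 (0.981) and TMEM25 (0.979), and CYP1A1 most like FOXRED1 (0.974), VEGFB (0.973) and BCKDHA (0.969).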

How the data were processed

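Total RNA of 36 mammary glands was hybridised to 1 porcine Affymetrix array each, in 9 groups of 4 taken from the treatment labels. The authors made the deposited log2 values, 1 per probe set, with RMA, per the submitters' processing notes. Its version and the log base were not given in the sources used here, and the base was read from the range (1.55 to 13.7), so every fold rests on that reading. Values were used as deposited, and with no reads to count, precision is set by the 4 animals per group.

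Of the 20792 probe sets, 9149 had 1 gene symbol, 178 several and 11465 none here, and only single-symbol probe sets were named. Of the 59 members, 58 had a gene identifier in the reference table. The symbol CYP3A39 stands there as an older name of CYP3A46, and both are given as the platform annotation has them. Of the members, 13 had more than 1 probe set. Genome positions and sequences were not used here.

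A linear model with 1 mean per group was fitted to all arrays with limma 3.58.1 in R 4.3.3 (27 residual and 4.16 prior degrees of freedom), with two-sided p-values and Benjamini-Hochberg adjustment across the 20792 probe sets, separately in each of 12 comparisons. An interaction is the effect of one agent with the other given minus its effect without, averaged over the third. The same code was tested on simulated data. The text names up to 10 called members in each direction of the estrogen and haloperidol effects, up to 4 elsewhere and 26 measured genes of a fixed list of 37. The remaining members are named to account for all of them, after their values were seen. The members and all gene lists were chosen with earlier results of these data known.

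Alternatives were probe sets under the median level left out, a second quantile normalization, median centring, weights per array, robust moderation with a variance trend, the replicate letter as a block or random term, 1 probe set per gene, the mean over a gene's probe sets, a fit of only the groups compared and each array left out. The adipocyte score as a covariate was added after seeing the data. No label states that animals sharing a letter are related. Python 3.11.15 with pandas 2.3.3 and matplotlib 3.10.9 made the figures.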

Additional observations from a re-analysis of the deposited data

Results flagged for a closer look

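Single animals stood far from the other 3 of their group in 17 of the 387 groups tested for the enzymes named, measured as the gap to the nearest animal divided by the range of the group and set against the critical value of Dixon's test. Chance gives about 1 in 20. Among the glutathione peroxidases, GPX1 was 10.5 in BP animal A, against 12.3 to 12.5 in the others (gap share 0.912). GPX2 was 7.61 in B animal A, against 5.31 to 5.48 (0.926), 5.91 in HEP animal C, against 4.95 to 5.09 (0.855), and 7.66 in HE animal A, against 9.19 to 9.51 (0.831).

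Among the P450s and FMO5, CYP7A1 was 2.61 in HP animal A, against 4.26 to 4.35 (0.950), CYP19A3 was 9.54 in B animal A, against 8.65 to 8.79 (0.842), CYP2E1 was 2.86 in HEP animal D, against 3.67 to 3.83 (0.836), and FMO5 was 5.32 in HE animal C, against 5.76 to 5.79 (0.947). AKR1A1 was 12.46 in HP animal C, against 11.99 to 12.05 (0.876), AKR1C1 was 3.04 in HP animal A, against 2.41 to 2.47 (0.905), and 3.19 in BE animal C, against 2.13 to 2.26 (0.885). ALDH3A2 was 11.9 in BE animal D, against 11.2 to 11.3 (0.841), SULT1A3 was 10.9 in H animal A, against 12.1 to 12.3 (0.838), and GSTZ1 was 8.64 in BP animal C, against 7.92 to 8.02 (0.862). PRDX3 was 10.1 in BE animal C, against 11.2 to 11.4 (0.845), PRDX5 was 11.3 in sham animal D, against 11.95 to 12.05 (0.857), and PRDX6 was 10.8 in HE animal B, against 11.3 to 11.4 (0.839).

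The effect of estrogen differed between haloperidol and bromocriptine, by the interaction term of the limma fit, for GPX2 (2.51), CYP19A3 (1.10), AKR1E2 (0.90), SULT1A3 (-2.06), CYP2B22 (-1.76), CYP7A1 (-1.45), GPX1 (-1.22), FMO1 (-1.05) and AKR1CL1 (-0.93). The effect of estrogen differed between animals with and without progesterone for GPX2 (-2.41).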

How the results depend on the processing

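For the counts of called enzymes, 112 of the alternative counts lay within 1.5 times of the count reported and 20 did not. The adipocyte covariate added after seeing the data is among these alternatives. The 112 include the cases of 0 against 0 for progesterone, its interaction with haloperidol and BP against B. They also include most of those for H against B. The 112 therefore overstate how steady the counts above 0 were. With all probe sets left out whose mean was under the median of all probe sets (7.87, a stricter limit than that for dim genes), 38 enzymes stayed in the fit and GPX2, CYP7A1 and AKR1C1 were not among them; the calls were 0 for the interaction of estrogen with progesterone, 2 for BE against B and 0 for HEP against HE. A variance trend with robust moderation gave 7 in B against sham. Array weights gave 12 for haloperidol, 2 for the interaction of estrogen with progesterone, 13 in B against sham, 2 in H against B and 2 in HEP against HE. One probe set per gene gave 1 in H against B. Fits of only the groups compared gave 0 for the interaction of estrogen with progesterone, 0 in B against sham and 2 in BE against B. The cause of these moves was not tested, except that the smaller fits have fewer animals. With the letter as a replicate block B against sham gave 7, and of the 60 called results of single enzymes 3 lost their call. The letters share only a name: residuals of animals with the same letter correlated at 0.04 on average over 144 pairs, against -0.01 for other letters, and 14 of 36 arrays were closest to their own letter. With the adipocyte score as a covariate the calls were 5 for estrogen, 4 for haloperidol, 0 for the interaction of estrogen with haloperidol, 0 for that with progesterone, 0 in B against sham, 4 in HE against BE and 2 in HEP against HE, and the effect of estrogen changed sign for AKR1CL1 (0.14), ALDH1L1 (0.29) and GPX3 (0.25), all then not called.

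Leaving out 1 array at a time gave 23 to 30 calls for estrogen, 5 to 11 for haloperidol, 3 to 13 for the interaction of estrogen with haloperidol, 0 to 2 for that with progesterone, 1 to 8 in B against sham, 3 to 5 in BE against B, 5 to 11 in HE against BE and 1 to 2 in HEP against HE. Progesterone, its interaction with haloperidol, BP against B and H against B stayed at 0. Of the 60 called results of single enzymes, 37 kept their call without any 1 array, and 14 lost it in the fits of only the groups compared.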
